A study of Sus scrofa with 40 samples.

Results

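The nuclear-encoded subunits of respiratory complexes II, III, IV and V were described in 4 meat cuts of Chalu black pigs. The members are the genes outside the mitochondrial chromosome whose name in the deposited table is SDHA, SDHB, SDHC, SDHD or CYC1, or begins with UQCR, COX4, COX5, COX6, COX7, COX8 or ATP5. They were 35 of the 21280 genes of the table: 3 of complex II, 6 of complex III, 12 of complex IV and 14 of complex V. They lie on 15 chromosomes, with at most 6 on the same one. The row of SDHA, the flavoprotein of complex II, carries no name in the table and is therefore not a member.

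Complex II passes electrons from succinate to ubiquinone, complex III passes them on to cytochrome c, complex IV delivers them to oxygen, and complex V, the ATP synthase, uses the resulting proton gradient to make ATP. Complex II is built from nuclear genes alone, whereas complexes III, IV and V join nuclear subunits to a core encoded on mitochondrial DNA. In skeletal muscle, slow fibres are known for a higher content of mitochondria than fast glycolytic fibres, and complex IV has subunit isoforms that prevail in heart and skeletal muscle.

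Messenger RNA was sequenced from pork belly (PB), the trapezius of the shoulder (TM), the hamstring of the hind leg (HM) and the longissimus dorsi of the back (LDM), with 10 libraries per cut and 40 in all. Per the labels, all animals were male Chalu black pigs sired by the same boar and reared together, were fasted for 24 hours before slaughter, and were sampled on the left side within 45 minutes of death, away from fascia. Age and genotype are not stated, and no animal received a treatment that the labels name. The labels name no reference cut, and the 6 pairs of cuts address which genes differ between them. PB1 is titled PB while its tissue field names the longissimus, and was kept in PB. Mitochondrially encoded genes took 12.0% of its counts, beside 9.31% to 16.2% over PB with PB1 included and 3.63% to 6.05% over LDM. The tissue of PB1 was not tested.

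Between 12305913 and 17735722 counts were deposited for each library. The members took 0.461% ± 0.089 of the counts in PB, 0.583% ± 0.076 in TM, 0.562% ± 0.096 in HM and 0.458% ± 0.090 in LDM (SD, n = 10 each). The 3 measured markers of skeletal muscle fibres, ACTA1, CKM and DES, summed to between 58720 and 145100 CPM (counts per 1000000 counts of the library, scaled by TMM, edgeR's between-library factor) over the 40 libraries. The labels do not say that a library number marks a pig, so the p-values measure the spread between these samples, which may be technical in part. In whole-tissue RNA, fewer cells of a type and less RNA per cell cannot be told apart. PB8, TM8 and LDM8 were the lowest libraries of their cuts for most members. They are described at the end, and calls of members that changed without the 4 libraries numbered 8 are named. That setting also leaves out HM8, which was not low for most members.

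Levels of different genes were compared per length, in FPKM (fragments per kilobase of gene model, relative to the library total). Over the 40 libraries 7 members averaged more than 100 FPKM. The beta subunit of the catalytic head of the ATP synthase, ATP5F1B, stood highest at 354 FPKM, with a range of 144 to 512 FPKM. It was followed by COX5A of complex IV at 235 FPKM, the cytochrome of complex III, CYC1, at 233 FPKM, the stalk subunit ATP5PO at 232 FPKM and the core protein UQCRC1 at 221 FPKM. ATP5F1D, a central stalk subunit of the ATP synthase, averaged 184 FPKM, and SDHB, the iron-sulfur subunit of complex II, averaged 133 FPKM. This order rests on the lengths of the gene models. ATP5F1A, on a model of 14834 bases, averaged 68.8 FPKM, although its mean CPM was above that of ATP5F1B (2046 bases) in every cut.

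**Figure D1:**
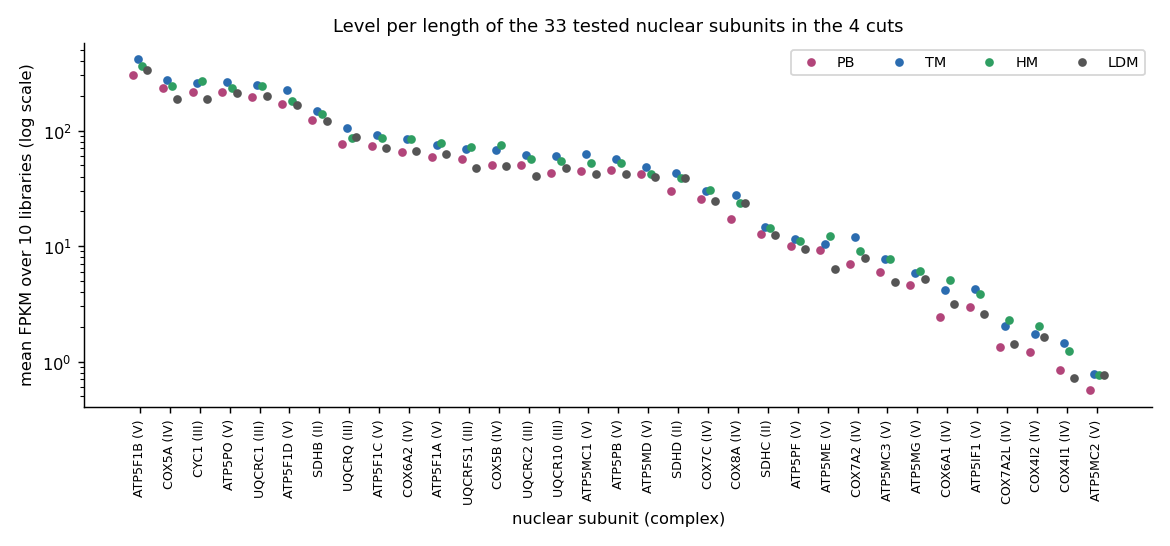
Mean FPKM (log scale, as deposited, relative to the library total) of the 33 tested nuclear subunits, ordered by their mean over all 40 libraries, with PB, TM, HM and LDM from left to right within each gene. The means run from 354 FPKM for ATP5F1B to 0.717 FPKM for ATP5MC2.

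At the low end, 5 members averaged under 1.2 CPM in every cut: COX4I1, COX4I2, COX6B2, COX7A1 and ATP5MC2. COX7A1, the isoform of its subunit known from heart and skeletal muscle, had 0 counts in PB over 10 libraries, 2 in TM, 4 in HM and 13 in LDM, where a count of 0 allows up to 0.0210 CPM in PB. COX6B2, an isoform known from testis, had 4 counts in PB, 0 in TM (which allows up to 0.0197 CPM), 2 in HM and 6 in LDM. COX7A1 and COX6B2 had too few counts for the test, which left 33 members. With no filter on low counts, COX7A1 was lower in PB than in LDM (adjusted p = 0.00785) and COX6B2 lower in TM than in LDM (adjusted p = 0.0488), by edgeR.

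Read assignment limits some of these levels. The models of 14 members overlap another gene model, 7 of them over 71.9% of their span or more. The model of COX7A1 (chromosome 6, 45517226 to 45520714, minus strand, Sscrofa11.1) lies wholly within that of CAPNS1 on the other strand, and those of ATP5MD and ATP5PF lie wholly within other models. The model of COX4I1 (chromosome 6, 3131019 to 3240221) is overlapped over 98.7% of its span, and that of COX6A1 (chromosome 14, 40408631 to 40423629) over 84.7%. Whether reads were assigned by strand is not known here, so the values of these genes are uncertain. Counting intervals and floors cover counting error only.

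Mean levels of most nuclear subunits were higher in the trapezius and the hamstring than in the back and the belly, by small amounts. The difference between the belly and these muscles was smaller without the libraries numbered 8. The median log2 change of the tested members was -0.19 in PB against HM and -0.16 in PB against TM, and -0.01 and -0.03 without those libraries. The mean CPM was highest in PB for 1 of the 33 tested members, in TM for 15, in HM for 16 and in LDM for 1, and it was lowest in PB for 10 and in LDM for 23. Under an F test for any difference among the 4 cuts, 11 of 33 members passed (33.3%), beside 57.2% of all 11713 genes tested (edgeR quasi-likelihood test, adjusted p under 0.05). The 11 members were none of 3 in complex II, 3 of 6 in complex III, 5 of 10 in complex IV and 3 of 14 in complex V.

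Against LDM, all members that passed were higher in the other cut. COX8A, with a log2 change of -0.36 ± 0.16 in PB over LDM (adjusted p = 0.0668), was lower there when either of 2 libraries was left out (adjusted p = 0.0163 without PB9). It was also lower there in an edgeR fit with a replicate block (adjusted p = 0.0113). In PB 6 of 33 passed (18.2%), beside 41.7% of all genes in either direction and 20.5% of all genes higher in PB. In TM 13 of 33 passed (39.4%), beside 24.7% of all genes and 11.3% higher in TM. In HM 10 of 33 passed (30.3%), beside 32.5% of all genes and 16.5% higher in HM. The median log2 change over the 33 members was 0.12 in PB, 0.23 in TM and 0.25 in HM, beside -0.02, 0.04 and 0.08 over all genes. The 3 comparisons share the LDM libraries. The TM count was 7 without LDM2, LDM3, LDM4, LDM5, TM9 or TM10 and 8 without TM2, and the HM count was 17 with limma-voom.

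**Figure D2:**
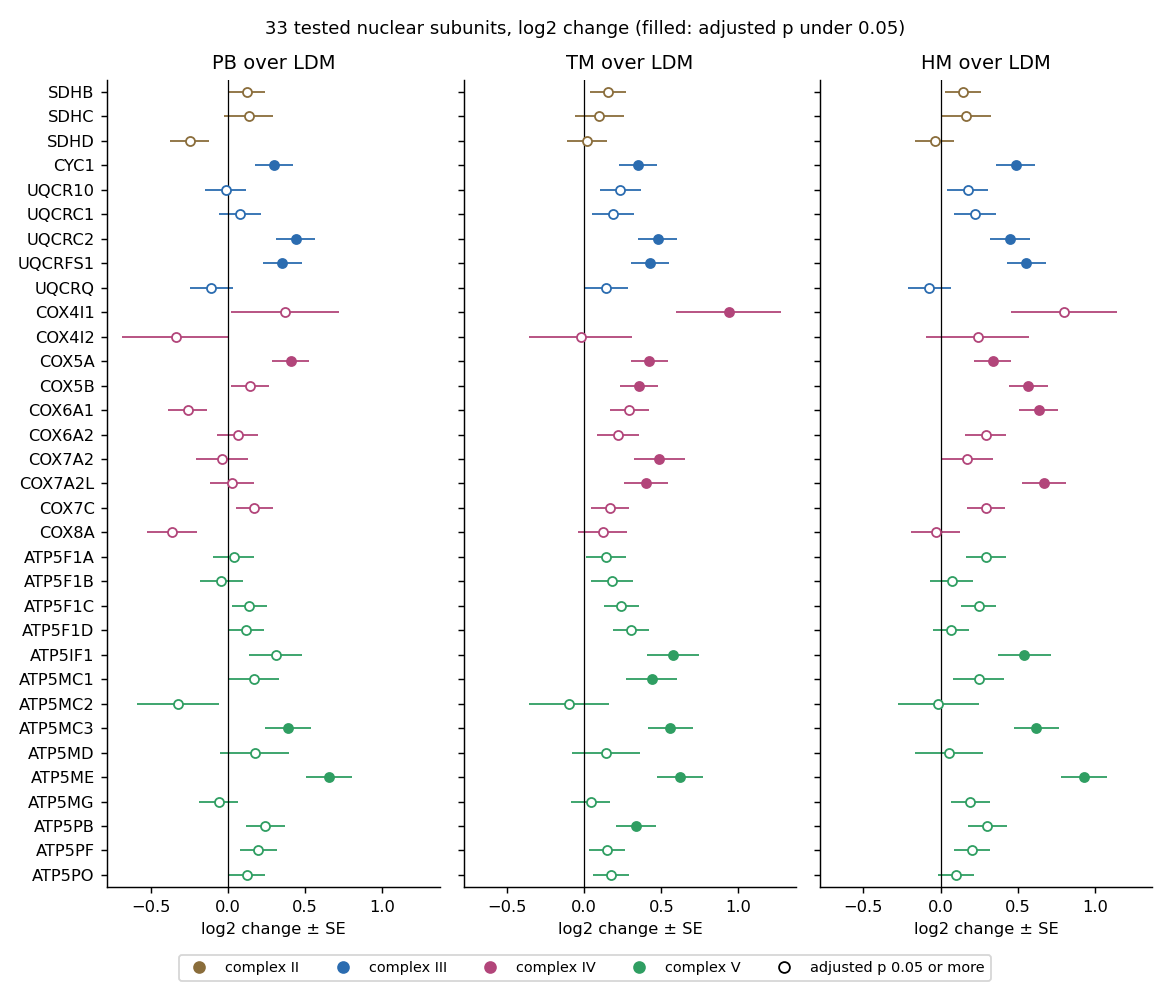
Log2 change ± SE of each tested nuclear subunit in PB, TM and HM over LDM, coloured by complex, filled where the adjusted p was under 0.05. All filled points lie right of 0, with 6 in PB, 13 in TM and 10 in HM, and none belongs to complex II.

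By complex, the mean sum of the members' CPM was lowest in LDM for each of the 4 complexes. Complex II summed to 506 ± 75.5 CPM in PB, 521 ± 69.7 in TM, 522 ± 110 in HM and 478 ± 71.8 in LDM (SD, n = 10 each, here and in the next 3 sums). Complex III summed to 1264 ± 221 CPM in PB, 1345 ± 241 in TM, 1404 ± 250 in HM and 1092 ± 191 in LDM. Complex IV summed to 528 ± 91.1 CPM in PB, 570 ± 94.5 in TM, 595 ± 72.5 in HM and 460 ± 75.8 in LDM. Complex V summed to 2699 ± 479 CPM in PB, 2970 ± 519 in TM, 2991 ± 498 in HM and 2586 ± 439 in LDM. The sum of each of the 4 complexes thus lay furthest from LDM in HM, with overlapping spreads, and in complexes II and V TM lay close to HM. The median log2 change over LDM in complex IV was 0.04 in PB, 0.32 in TM and 0.32 in HM, and in complex III 0.19 in PB, 0.29 in TM and 0.34 in HM. In complexes II and V the medians lay between 0.10 and 0.23 in all 3 comparisons. No test was made on a sum or a median.

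Complex II had no member that passed between any pair of cuts in the main edgeR fit (TMM scaling, cut as the only term, all libraries). SDHB ran from 239 to 385 CPM in PB (median 358), from 273 to 406 CPM in TM (median 350), from 206 to 462 CPM in HM (median 329) and from 250 to 396 CPM in LDM (median 309), with log2 changes of 0.12 ± 0.12 (SE), 0.15 ± 0.12 and 0.15 ± 0.12 over LDM in PB, TM and HM (adjusted p = 0.414, 0.351 and 0.342 by edgeR). The ranges of the 4 cuts overlapped. SDHC, a membrane anchor, ran from 67.0 to 156 CPM in PB (median 122), from 75.7 to 141 CPM in TM (median 121), from 55.4 to 176 CPM in HM (median 122) and from 73.0 to 157 CPM in LDM (median 97.7). Its log2 changes over LDM were 0.13 ± 0.16 in PB, 0.10 ± 0.16 in TM and 0.17 ± 0.16 in HM (adjusted p = 0.529, 0.693 and 0.431). SDHD, the other anchor, had its lowest values in PB, from 34.1 to 70.6 CPM (median 50.1), beside 44.6 to 79.0 CPM in TM (median 58.9), 40.6 to 74.2 CPM in HM (median 57.5) and 40.1 to 78.7 CPM in LDM (median 62.3). Its log2 change in PB over LDM was -0.25 ± 0.13 (adjusted p = 0.118), and it passed without PB5 (adjusted p = 0.0483). In PB over TM its log2 change was -0.27 ± 0.13 (adjusted p = 0.129), and it passed in an edgeR fit with a replicate block (adjusted p = 0.0443).

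The unnamed row of SDHA (ENSSSCG00000020686, named from a reference table of gene IDs) averaged 454 ± 106 CPM in PB, 514 ± 95.6 in TM, 509 ± 123 in HM and 440 ± 78.0 in LDM (SD, n = 10 each). It passed in no pair either.

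In complex III, UQCRC2, UQCRFS1 and CYC1 were higher in PB, TM and HM than in LDM, whereas the core protein UQCRC1 and the small subunits did not pass. UQCRC2, a core protein facing the matrix (chromosome 3, 24197745 to 24228832), ran from 80.2 to 180 CPM in PB (median 137), from 101 to 170 CPM in TM (median 146), from 89.4 to 187 CPM in HM (median 143) and from 69.5 to 134 CPM in LDM (median 98.0). PB, TM and HM lay side by side, and 9, 10 and 9 of their 10 libraries were above the LDM median. UQCRC2 rose by a log2 change of 0.44 ± 0.13 in PB, 0.48 ± 0.13 in TM and 0.45 ± 0.13 in HM over LDM (adjusted p = 0.00539, 0.00533 and 0.00626).

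UQCRFS1, the Rieske iron-sulfur protein (chromosome 6, 39364887 to 39373873), ran from 201 to 340 CPM in PB (median 299), from 226 to 430 CPM in TM (median 286), from 255 to 474 CPM in HM (median 318) and from 186 to 291 CPM in LDM (median 217). Its log2 change over LDM was 0.35 ± 0.13 in PB, 0.43 ± 0.13 in TM and 0.56 ± 0.13 in HM (adjusted p = 0.0232, 0.0113 and 0.000902). All 10 libraries of TM and of HM and 9 of PB were above the LDM median, with overlapping ranges. CYC1, which hands electrons to cytochrome c, ran from 194 to 335 CPM in PB (median 299), from 223 to 408 CPM in TM (median 288), from 257 to 460 CPM in HM (median 311) and from 184 to 310 CPM in LDM (median 224). It rose by 0.30 ± 0.12 in PB, 0.35 ± 0.12 in TM and 0.49 ± 0.12 in HM (adjusted p = 0.0486, 0.0350 and 0.00271). The CYC1 call in PB was lost without any 1 of 16 libraries, with an adjusted p of 0.063 without PB1 and up to 0.0851 without LDM2. The CYC1 call in TM was lost without LDM2, LDM3, LDM4, LDM5, TM2, TM9 or TM10, with an adjusted p up to 0.0875 without TM10.

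The other complex III members passed in no pair. UQCRC1, the second core protein, averaged 461 ± 101 CPM in PB, 496 ± 79.9 in TM, 511 ± 103 in HM and 437 ± 90.8 in LDM (SD, n = 10 each). The small subunits UQCR10 and UQCRQ had log2 changes over LDM between -0.11 and 0.23.

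Complex IV held 5 of the 11 members that differed among cuts, and its genes followed more than a single order. COX5A, which had the highest level per length in the complex (chromosome 7, 58622964 to 58644035), ran from 125 to 256 CPM in PB (median 209), from 146 to 245 CPM in TM (median 215), from 153 to 252 CPM in HM (median 200) and from 114 to 198 CPM in LDM (median 154). It rose by 0.41 ± 0.12 in PB, 0.42 ± 0.12 in TM and 0.34 ± 0.12 in HM over LDM (adjusted p = 0.00640, 0.00892 and 0.0282), with LDM the lowest cut and the ranges of the other 3 overlapping. The HM call was lost without HM1, LDM3, LDM5, LDM9 or TM3 (adjusted p up to 0.0652 without LDM9), and stood at 0.0879 without the libraries numbered 8.

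COX5B, the zinc-binding subunit (chromosome 3, 56629270 to 56632120), instead stood high in the hamstring and low in the belly and the back. It ran from 49.4 to 113 CPM in PB (median 82.7), from 73.1 to 130 CPM in TM (median 93.0), from 78.8 to 128 CPM in HM (median 118) and from 54.1 to 103 CPM in LDM (median 73.0). Over LDM its log2 change was 0.14 ± 0.12 in PB, 0.36 ± 0.13 in TM and 0.57 ± 0.13 in HM (adjusted p = 0.374, 0.0336 and 0.000690). All 10 PB libraries were below the HM median, and COX5B fell by 0.42 ± 0.13 in PB against HM (adjusted p = 0.0101), a call that was lost without the libraries numbered 8 (adjusted p = 0.0955). The call held without any 1 library, PB8 included (adjusted p up to 0.0448 without LDM9). COX5B stood at 121.5 CPM in HM8, above the HM median. The TM call was lost without LDM2, LDM3, LDM5, LDM9, TM2, TM9 or TM10 (adjusted p up to 0.0806 without TM10).

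COX6A1, the broadly expressed isoform of its subunit, whose model other genes overlap over 84.7%, had the smallest p of all members in the F test (adjusted p = 2.05e-06). It ran from 8.79 to 15.2 CPM in PB (median 13.2), from 13.9 to 22.6 CPM in TM (median 19.9), from 16.2 to 30.1 CPM in HM (median 24.6) and from 9.89 to 19.7 CPM in LDM (median 15.8). The PB and HM ranges did not overlap. COX6A1 fell by 0.90 ± 0.13 in PB against HM (adjusted p = 1.74e-06) and by 0.55 ± 0.13 in PB against TM (adjusted p = 0.00135), and it rose by 0.64 ± 0.13 in HM over LDM (adjusted p = 0.000207). These 3 calls held in all 12 alternatives and without any 1 library. Its values in PB and TM over LDM, -0.26 ± 0.13 and 0.29 ± 0.13, did not pass (adjusted p = 0.0929 and 0.0823). The TM value passed with upper-quartile scaling (adjusted p = 0.0332).

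COX6A2, the isoform of the same subunit known from heart and skeletal muscle, passed in no pair in the main edgeR fit. In HM over LDM its log2 change was 0.29 ± 0.13 (adjusted p = 0.0887). It passed there in 2 of 12 alternatives (adjusted p down to 0.0252) and when any 1 of 3 libraries was left out. It ran from 74.2 to 117 CPM in PB (median 102), from 84.6 to 155 CPM in TM (median 97.6), from 83.0 to 173 CPM in HM (median 112) and from 73.2 to 136 CPM in LDM (median 88.3). Per length it stood at 75.2 FPKM over all libraries and COX6A1 at 3.70 FPKM, on models of 1383 and 4860 bases. The log2 ratio of COX6A2 to COX6A1 within a library averaged 2.89 ± 0.32 in PB, 2.49 ± 0.23 in TM, 2.23 ± 0.38 in HM and 2.58 ± 0.39 in LDM (SD, n = 10 each, from CPM with 0.5 added). The ratio was higher in PB than in HM by 0.66 in 10 of 10 PB libraries set against the HM median (two-sided permutation test, p = 0.00046, adjusted p = 0.00828 over 18 tests of 3 ratios). Its difference of 0.41 between PB and TM (p = 0.00482, adjusted p = 0.0434 by permutation test) was lost with a pseudocount of 1, with FPKM, without HM6, HM9, TM3 and TM7 together, or without any 1 of 13 libraries (adjusted p up to 0.0941 over these settings). No other ratio test passed.

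COX7A2L, known in mouse and human as a factor that joins complexes III and IV into supercomplexes, was likewise high in HM and low in both PB and LDM. It ran from 7.40 to 15.6 CPM in PB (median 10.8), from 7.80 to 21.6 CPM in TM (median 13.4), from 12.2 to 20.7 CPM in HM (median 17.8) and from 8.70 to 15.4 CPM in LDM (median 10.7). All 10 PB libraries were below the HM median and all 10 HM libraries above the LDM median. It fell by 0.64 ± 0.14 in PB against HM (adjusted p = 0.000764) and rose by 0.67 ± 0.14 in HM over LDM (adjusted p = 0.000444). It also rose by 0.40 ± 0.14 in TM over LDM (adjusted p = 0.0328), a call lost without LDM2, LDM4, LDM5, LDM6, TM9 or TM10 (adjusted p up to 0.0922 without TM9). Its fall of 0.38 ± 0.14 in PB against TM (adjusted p = 0.0488) was lost in 7 of 12 alternatives and without any 1 of 31 libraries. The fit without the libraries numbered 8 was among these alternatives.

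COX7A2, the broadly expressed isoform beside COX7A1, had its highest mean in TM. It ran from 2.31 to 6.26 CPM in PB (median 4.32), from 4.47 to 7.30 CPM in TM (median 6.15), from 3.65 to 7.50 CPM in HM (median 4.39) and from 2.97 to 7.59 CPM in LDM (median 3.495). It fell by 0.53 ± 0.17 in PB against TM (adjusted p = 0.0203) and rose by 0.49 ± 0.17 in TM over LDM (adjusted p = 0.0289). Every TM library was above the LDM median. The PB call was lost without TM5 or TM7 (adjusted p up to 0.0545 without TM5) and without the libraries numbered 8 (0.0533), and the LDM call without LDM3, LDM4, LDM9 or TM9 (adjusted p up to 0.0557 without TM9).

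COX8A, a small nuclear subunit, ran from 5.70 to 16.2 CPM in PB (median 9.87), from 8.76 to 17.9 CPM in TM (median 14.3), from 9.003 to 17.6 CPM in HM (median 11.8) and from 8.11 to 17.1 CPM in LDM (median 11.8). It fell by 0.48 ± 0.16 in PB against TM (adjusted p = 0.0258), with 9 of 10 PB libraries under the TM median. That call was lost without HM9, LDM5, LDM7, LDM9, PB8, TM3, TM5, TM9 or TM10 (adjusted p up to 0.0663 without TM5), and in 3 of 12 alternatives (up to 0.0627). COX7C passed in no pair in the main edgeR fit, at 102 ± 22.0 CPM in PB, 101 ± 16.7 in TM, 111 ± 18.4 in HM and 90.4 ± 16.8 in LDM (SD, n = 10 each). Its log2 change in HM over LDM was 0.29 ± 0.12 (adjusted p = 0.0631). COX7C passed there in 3 of 12 alternatives (adjusted p down to 0.0226) and when any 1 of 8 libraries was left out.

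The isoforms of subunit IV of cytochrome oxidase rested on few reads. COX4I1, the general isoform, ran from 0.154 to 1.47 CPM in PB (median 0.715), from 0.392 to 2.46 CPM in TM (median 1.01), from 0.594 to 1.97 CPM in HM (median 0.830) and from 0.216 to 1.21 CPM in LDM (median 0.489), or 2 to 41 counts per library. It rose by 0.94 ± 0.34 in TM over LDM (adjusted p = 0.0391), a call lost with no filter on low counts (0.0526) and without LDM1, LDM2, LDM3, LDM4, LDM5, LDM6, TM2, TM3 or TM10 (up to 0.115 without TM2). In HM over LDM its log2 change was 0.80 ± 0.34 (adjusted p = 0.0682). It passed there with limma-voom (adjusted p = 0.0427) and when either of 2 libraries was left out. COX4I2, the isoform known from lung, averaged 0.707 ± 0.446 CPM in PB, 0.887 ± 0.537 in TM, 1.06 ± 0.38 in HM and 0.909 ± 0.365 in LDM (SD, n = 10 each) and passed in no pair.

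**Figure D3:**
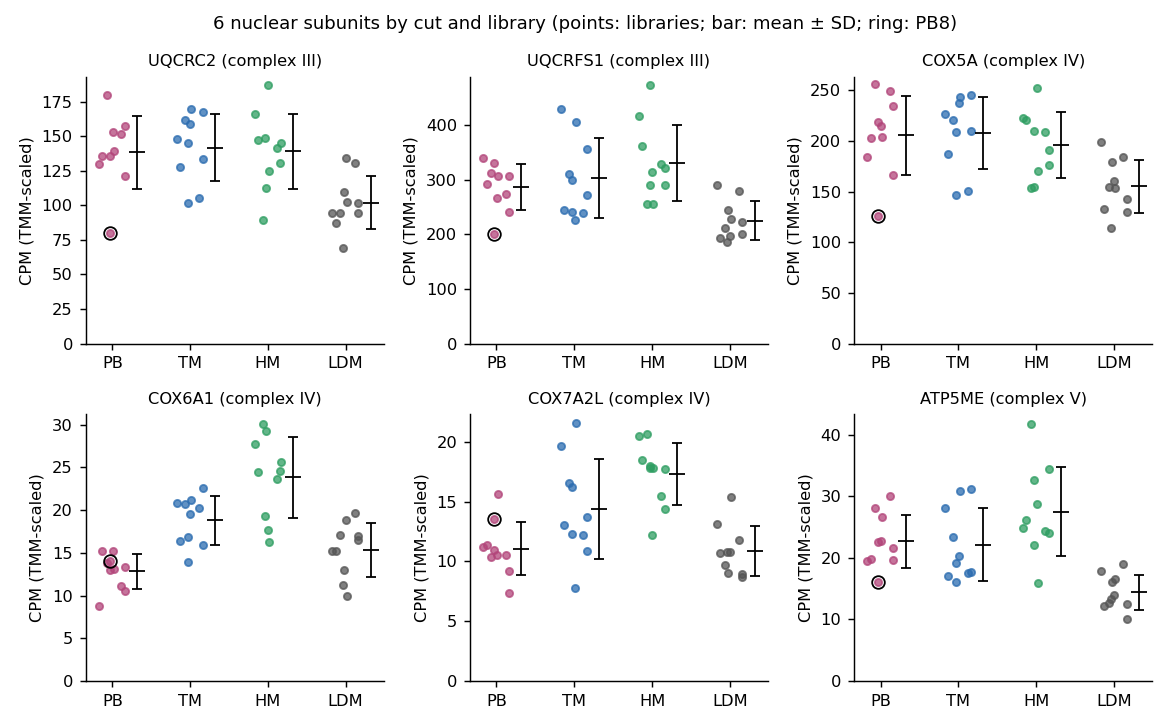
CPM of 6 nuclear subunits in each library, with PB, TM, HM and LDM from left to right, mean ± SD beside the points (n = 10) and a ring round PB8. UQCRC2, UQCRFS1, COX5A and ATP5ME lie lowest in LDM, whereas COX6A1 and COX7A2L lie low in both PB and LDM and high in HM.

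In complex V, the subunits of the catalytic head and the central stalk passed in no pair in the main edgeR fit, but some lay close to the threshold. ATP5F1D, of the central stalk, had a log2 change of 0.30 ± 0.12 in TM over LDM (adjusted p = 0.0512), passed in 8 of 12 alternatives (adjusted p down to 0.0104) and passed when any 1 of 13 libraries was left out. In HM over LDM, ATP5F1A (0.30 ± 0.13, adjusted p = 0.077) and ATP5F1C (0.25 ± 0.11, adjusted p = 0.0907) passed with limma-voom (adjusted p = 0.0305 and 0.0376). The members that passed were ATP5ME, ATP5MC1 and ATP5MC3 of the membrane part, the inhibitor ATP5IF1 and the peripheral stalk subunit ATP5PB. The alpha and beta subunits ATP5F1A and ATP5F1B averaged 956 ± 198 and 672 ± 140 CPM in PB, 1029 ± 216 and 785 ± 125 in TM, 1145 ± 213 and 728 ± 147 in HM, and 933 ± 149 and 693 ± 154 in LDM (SD, n = 10 each). The log2 changes over LDM of ATP5F1C and ATP5F1D, of the central stalk, lay between 0.07 and 0.30. Of the peripheral stalk subunits, ATP5PB rose by 0.33 ± 0.13 in TM over LDM (adjusted p = 0.0476), a call lost in 3 of 12 alternatives and without any 1 of 21 libraries (adjusted p up to 0.125 without TM9). In PB over LDM ATP5PB changed by 0.24 ± 0.13 (adjusted p = 0.122). It passed there in 2 of 12 alternatives (adjusted p down to 0.037), the fit without the libraries numbered 8 among them. It also passed there without PB8 (adjusted p = 0.0377). In HM over LDM ATP5PB changed by 0.30 ± 0.13 (adjusted p = 0.0603). It passed there in 3 of 12 alternatives (adjusted p down to 0.0218) and without any 1 of 9 libraries. ATP5PO and ATP5PF did not pass in the main edgeR fit. ATP5PF had a log2 change of 0.20 ± 0.12 in HM over LDM (adjusted p = 0.181) and passed there with limma-voom (adjusted p = 0.025).

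ATP5ME, subunit e of the membrane part (chromosome 8, 110604 to 114908), had the largest changes over LDM among members above 5 CPM. It ran from 16.1 to 30.1 CPM in PB (median 22.1), from 16.0 to 31.2 CPM in TM (median 19.8), from 16.0 to 41.7 CPM in HM (median 25.6) and from 10.1 to 19.0 CPM in LDM (median 13.7). Every library of PB, TM and HM was above the LDM median, although the ranges overlapped. The log2 change was 0.65 ± 0.15 in PB, 0.62 ± 0.15 in TM and 0.93 ± 0.15 in HM (adjusted p = 0.00061, 0.00218 and 1.9e-05), and these calls held in all 12 alternatives and without any 1 library. The other membrane subunits ATP5MG and ATP5MD passed in no pair.

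The ring of c subunits is made from ATP5MC1, ATP5MC2 and ATP5MC3, which encode the same mature protein. ATP5MC3 (chromosome 15, 81083960 to 81094488, 71.9% overlapped by ATF2) ran from 27.2 to 65.2 CPM in PB (median 52.4), from 40.7 to 85.4 CPM in TM (median 57.4), from 49.8 to 89.0 CPM in HM (median 59.0) and from 25.6 to 58.0 CPM in LDM (median 40.9). It rose by 0.39 ± 0.15 in PB, 0.56 ± 0.15 in TM and 0.62 ± 0.15 in HM (adjusted p = 0.0329, 0.00500 and 0.00145). The PB call was lost without LDM2, LDM3, LDM4, PB5, PB7 or PB9 (up to 0.0645 without PB5). ATP5MC1 ran from 22.7 to 85.4 CPM in PB (median 56.6), from 43.6 to 95.6 CPM in TM (median 68.3), from 44.0 to 73.2 CPM in HM (median 61.5) and from 27.5 to 73.0 CPM in LDM (median 49.0). Its rise of 0.44 ± 0.17 in TM (adjusted p = 0.0479) was lost without any 1 of 24 libraries (up to 0.104 without TM2), with no filter and without PB1 (up to 0.0519).

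Per length of the gene model, ATP5MC1 made up most of the summed c subunit FPKM in every cut: 86.8% ± 2.4 in PB, 88.0% ± 1.8 in TM, 85.8% ± 2.7 in HM and 88.1% ± 1.5 in LDM (SD, n = 10 each). ATP5MC3 made up 12.0% ± 1.9 in PB, 10.9% ± 1.7 in TM, 12.9% ± 2.4 in HM and 10.2% ± 1.0 in LDM. These shares rest on the lengths of the gene models, 1180 bases for ATP5MC1 and 8237 bases for ATP5MC3. Without scaling by length, ATP5MC1 averaged 56.69 CPM in PB, 68.34 in TM, 59.99 in HM and 50.52 in LDM. ATP5MC3 averaged 52.71 CPM in PB, 59.34 in TM, 62.0 in HM and 40.27 in LDM, above ATP5MC1 in HM only. ATP5MC2 averaged 0.545 ± 0.218 CPM in PB, 0.637 ± 0.284 in TM, 0.681 ± 0.243 in HM and 0.689 ± 0.210 in LDM, the only tested member whose mean was highest in LDM, and it passed in no pair.

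ATP5IF1, the inhibitor that blocks ATP hydrolysis by the enzyme, ran from 1.40 to 2.78 CPM in PB (median 1.95), from 1.65 to 3.32 CPM in TM (median 2.33), from 1.64 to 3.12 CPM in HM (median 2.36) and from 0.913 to 2.43 CPM in LDM (median 1.59), on 14 to 51 counts per library. All libraries of TM and HM were above the LDM median, and it rose by 0.58 ± 0.17 in TM and 0.54 ± 0.17 in HM over LDM (adjusted p = 0.0109 and 0.0127). The HM call was lost without the libraries numbered 8 (adjusted p = 0.0757), but held without any 1 library (adjusted p up to 0.0348 without LDM5). HM8 was the highest HM library for ATP5IF1. The log2 ratio of ATP5IF1 to ATP5F1B was higher than in LDM by 0.30 in PB, 0.26 in TM and 0.36 in HM, which did not pass (adjusted p = 0.115, 0.115 and 0.0778 by permutation test).

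Set against HM and TM, the belly showed lower values for a few complex IV genes and no member higher. In PB against HM, 3 of 33 members were lower (9.09%), beside 27.6% of all genes in either direction and 14.1% lower, and they were COX5B, COX6A1 and COX7A2L. In PB against TM, 4 of 33 were lower (12.1%), beside 23.1% of all genes and 9.69% lower, and they were COX6A1, COX7A2, COX7A2L and COX8A. Both comparisons share the PB libraries. The median log2 change of the 33 members was -0.19 against HM and -0.16 against TM, beside -0.05 and -0.06 over all genes. Without the libraries numbered 8 these medians were -0.01 and -0.03, with 2 members lower in each comparison. The PB against TM count was also 2 when the scaling left out the genes of mitochondrial DNA, in a fit of the pair alone, or without HM9, LDM5, LDM7, LDM9, TM3, TM7, TM9 or TM10, and it was 1 without TM5.

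Between TM and HM no member passed (0 of 33, beside 0.768% of all genes by edgeR), and DESeq2 and limma-voom gave 0 as well. At an unadjusted p under 0.05, 3 members passed with edgeR, namely ATP5F1D, ATP5ME and COX6A1, 3 with DESeq2 and 6 with limma-voom. The smallest adjusted p by edgeR was 0.208, for COX6A1 with a log2 change of -0.34 ± 0.12 in TM against HM. The median over the 33 members was -0.01, beside -0.02 over all genes.

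The mitochondrially encoded partners of complexes III, IV and V followed another order, with the highest means in the belly. Cytochrome b of complex III, CYTB, ran from 9175 to 14500 CPM in PB (median 12570), from 2990 to 7064 CPM in TM (median 4831), from 4556 to 8457 CPM in HM (median 6821) and from 2669 to 5677 CPM in LDM (median 3702). The PB range lay above those of the other 3 cuts. CYTB rose by 1.68 ± 0.14 in PB, 0.37 ± 0.14 in TM and 0.82 ± 0.14 in HM over LDM (adjusted p = 1.07e-11, 0.0422 and 3.34e-05).

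Of the 5 such subunits tested, COX1, COX2 and COX3 of complex IV, ATP6 of complex V and CYTB, all 5 were higher than in LDM in PB, in TM and in HM. In PB against HM 3 were higher, in PB against TM 4 were higher, and in TM against HM none passed. Their median log2 change over LDM was 1.68 in PB, 0.44 in TM and 0.82 in HM, beside the 0.12, 0.23 and 0.25 of the nuclear members. In PB against HM it was 0.85 and in PB against TM 1.30, beside the -0.19 and -0.16 of the nuclear members. COX2 averaged 12170 ± 2493 CPM in PB, 4239 ± 1575 in TM, 5444 ± 787 in HM and 2825 ± 670 in LDM (SD, n = 10 each). COX1, by contrast, averaged 36600 ± 7324 CPM in PB and 36480 ± 7344 in HM, with a log2 change of 0.005 ± 0.144 between them. ATP8, whose reading frame is known to overlap that of ATP6, had 1 count or none per cut. The difference between nuclear and mitochondrial values was not tested. The mitochondrially encoded genes took 12.5% ± 1.96 of all counts in PB, 7.53% ± 1.80 in TM, 9.12% ± 1.53 in HM and 4.97% ± 0.83 in LDM, and when the scaling left them out the numbers of members higher than in LDM were 7 in PB, 13 in TM and 10 in HM.

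**Figure D4:**
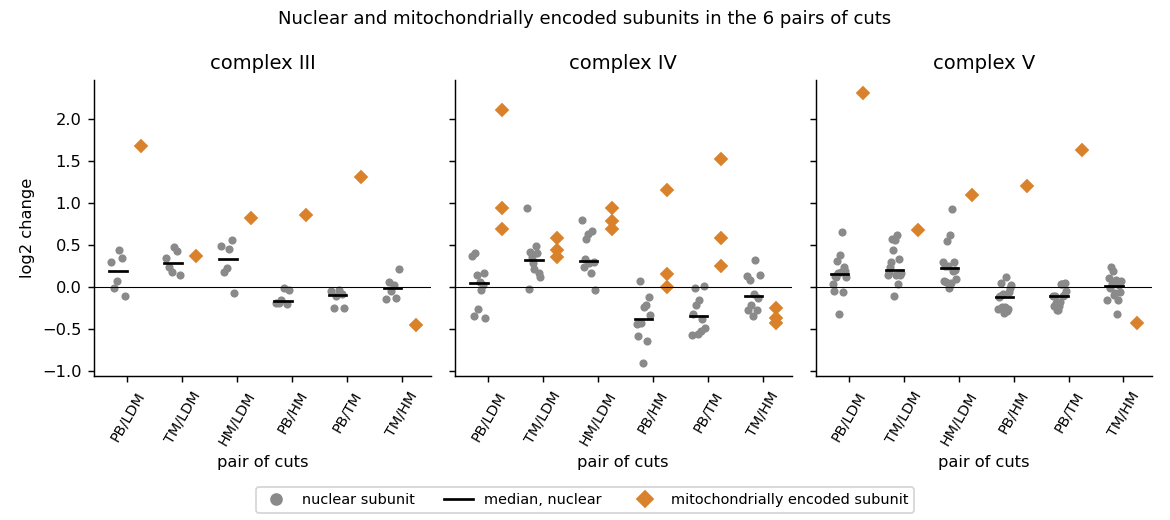
Log2 change of nuclear subunits (grey, with their median as a bar) and mitochondrially encoded subunits (orange) of complexes III, IV and V in the 6 pairs of cuts, each the first-named cut over the second. In PB over HM and PB over TM, the orange points lie at or above 0 and most grey points below it.

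Genes that serve the complexes were read from lists of the pathway. The counts of these lists, and of the marker lists below, stand beside the shares of all genes that passed in either direction. Over LDM those shares were 41.7% in PB, 24.7% in TM and 32.5% in HM. In PB they were 27.6% against HM and 23.1% against TM, and in TM against HM 0.768%. Of the electron carrier CYCS and its ligase HCCS, CYCS rose in PB and HM over LDM (0.42 ± 0.17 and 0.68 ± 0.17, adjusted p = 0.0475 and 0.00245) and HCCS in TM over LDM (0.48 ± 0.17, adjusted p = 0.0402). HCCS fell in PB against TM by 0.46 ± 0.17 (adjusted p = 0.0473). Of the 4 adenine nucleotide and phosphate carriers, none passed over LDM, and SLC25A6 fell in PB against HM by 0.49 ± 0.18 (adjusted p = 0.0363).

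Assembly factors that passed did so in both directions. SDHAF2, the single complex II factor measured, passed in no pair. Of 4 complex III factors tested, UQCC3 was lower than in LDM in PB, TM and HM, with a log2 change of -0.67 ± 0.16 in PB (adjusted p = 0.000842), and LYRM7, which helps to insert the Rieske protein, was higher in PB, at 2.76 CPM in PB and 0.883 CPM in LDM, by a log2 change of 1.62 ± 0.34 (adjusted p = 0.000226). In PB against TM, LYRM7 was higher as well (adjusted p = 0.0107) and 1 other factor lower. Of 13 complex IV factors, 1 was higher and 4 lower in PB than in LDM, 1 higher and 2 lower in TM, and 2 lower in HM, which is 38.5%, 23.1% and 15.4% of them, beside 41.7%, 24.7% and 32.5% of all genes. LRPPRC, which stabilises mitochondrial messenger RNA, was the higher one in PB, at 151 CPM in PB, 84.2 CPM in TM, 87.0 CPM in HM and 75.4 CPM in LDM, a log2 change of 1.001 ± 0.169 over LDM (adjusted p = 1.2e-05). COA7 fell by 1.06 ± 0.19 on the log2 scale in PB against LDM (adjusted p = 2.8e-05). Between PB and HM 2 complex IV factors were higher and 1 lower, and likewise between PB and TM, 23.1% each, beside 27.6% and 23.1% of all genes. Of 5 complex V factors, FMC1 alone passed, lower in PB and HM than in LDM. Of 5 genes of the MICOS complex, which shapes the cristae, CHCHD3 was higher in PB and HM than in LDM, CHCHD6 was higher in HM than in LDM, and 1 other gene was lower in PB than in TM.

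Markers of fibre types and of other cells moved with the cuts as well. All 9 slow fibre markers were higher and all 8 fast fibre markers lower in PB, TM and HM than in LDM, and none of either list passed between PB, TM and HM. The slow fibre markers summed to 25640 to 65110 CPM in PB, 8842 to 122400 in TM, 13540 to 81230 in HM and 6986 to 24890 in LDM. All 6 endothelial markers were higher in TM and HM than in LDM and 2 in PB, 3 were lower in PB than in HM, and 1 was lower in PB than in TM. They summed to 296 to 741 CPM in PB, 280 to 809 in TM, 381 to 968 in HM and 300 to 455 in LDM. The part of these cell types in the values of the nuclear subunits was not tested.

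Of the other marker lists, 4 of 4 smooth muscle genes were higher in HM than in LDM and 1 each in PB and in TM, and 3 were lower in PB than in HM, with a sum of 3087 CPM in HM6 beside a median of 303 in HM. Of 4 leukocyte genes 3 were higher in PB and 1 in TM than in LDM, and 1 was higher in PB than in TM, with all libraries in. The sum of the 4 genes had a median of 31.8 CPM in both PB and LDM, and reached 175 CPM in PB8. Of 5 adipocyte genes, CFD alone passed, lower in PB than in TM, HM and LDM. None of 4 fibroblast genes passed in any pair, and the 2 measured cardiac markers, of 4 listed, summed to at most 2.39 CPM in a library.

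Within cuts, libraries that were low for one member were often low for others, with a median pairwise r of 0.65 over 28 members. COX6A1, COX7A2L and ATP5MD followed the rest less. Their correlations with the median of the other 27 members were 0.17, 0.10 and 0.32. Over the 28 members of at least 5 CPM, the median log2 deviation of a library from each gene's mean ran from -0.72 to 0.26 in PB, from -0.31 to 0.45 in TM, from -0.20 to 0.40 in HM and from -0.59 to 0.20 in LDM. PB8 was the lowest PB library for 25 of these 28 members, TM8 the lowest TM library for 19 and LDM8 the lowest LDM library for 20. HM8 was the lowest HM library for 1 of them, with a median log2 deviation of 0.18. The 3 members that PB8 did not have lowest were COX6A1, COX7A2L and ATP5MD, at 14.0, 13.5 and 14.7 CPM in PB8. In PB8 the 4 leukocyte markers summed to 175 CPM, beside a median of 31.8 in PB, and mitochondrially encoded genes took 9.31% of its counts, the lowest share in PB. Their part in the low values of PB8 was not tested. Without the libraries numbered 8, 7 members were higher than in LDM in PB, 13 in TM and 8 in HM.

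**Figure D5:**
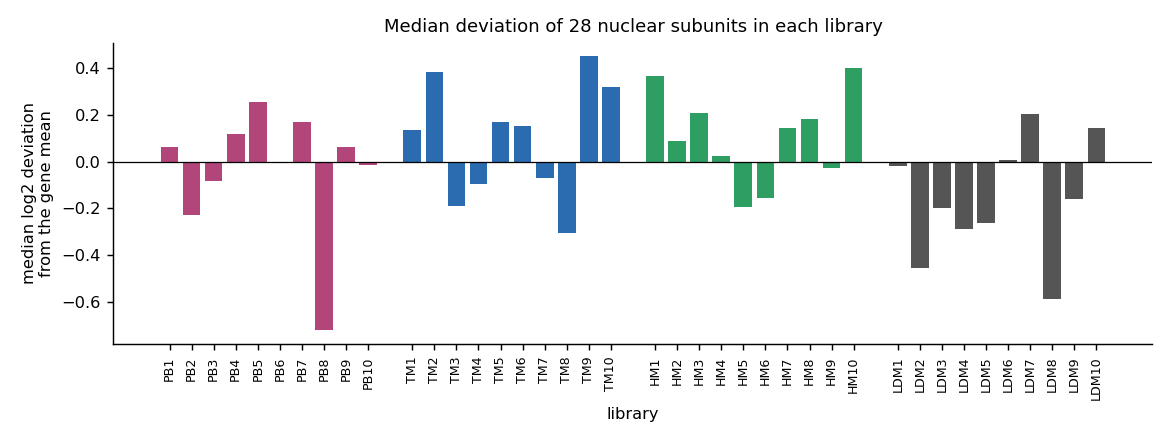
Median log2 deviation of 28 nuclear subunits from each gene's mean over all 40 libraries, 1 bar per library, with PB, TM, HM and LDM from left to right. PB8 stands at -0.72 and LDM8 at -0.59, the lowest of all libraries.

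Outside the name rule, 9 unnamed rows were identified by ID or description as subunits of the same complexes, SDHA among them. The row described as UQCRH averaged 0.0737 to 0.149 CPM per cut and that described as like COX6B1 0.0140 to 0.0510 CPM. The row described as COX8C had 0 counts in every library, which allows up to 0.0195 to 0.0210 CPM per cut. UQCR11, COX7B and the ATP synthase subunits epsilon and d passed in no pair. Subunit f of the membrane part of the ATP synthase averaged 41.4 ± 7.1 CPM in PB, 46.5 ± 8.6 in TM, 54.7 ± 8.1 in HM and 42.8 ± 8.0 in LDM (SD, n = 10 each). It was lower in PB than in HM by a log2 change of -0.40 ± 0.12 (adjusted p = 0.00877) and higher in HM than in LDM by 0.35 ± 0.12 (adjusted p = 0.0174), with all 10 PB libraries below the HM median.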

How the data were processed

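Messenger RNA from 40 libraries of 4 cuts, 10 each, was analysed from a table of counts and FPKM per gene deposited by the authors. The deposited counts are whole reads per gene, and Sscrofa11.1, HTSeq 0.9.1, HISAT2 2.0.5 and cutadapt 1.15 stand in the submitters' processing notes without their roles. The FPKM deposited by the authors equalled values recomputed from the counts, the gene lengths and the column totals for 100% of entries within a relative tolerance of 0.001, so FPKM is relative to each library's total and was used only to compare genes per length. Per the labels, a stranded kit was used.

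The test was a robust quasi-likelihood fit of the counts with no term but the cut (R 4.3.3, edgeR 4.0.16, TMM scaling, genes filtered by cut, 40 libraries), with Benjamini-Hochberg adjustment over all 11713 genes that passed the filter and a threshold of 0.05. The steps were tested on simulated data. CPM values are scaled by TMM. Ratios of isoforms were compared with two-sided permutation tests of 100000 resamples over libraries (numpy 2.4.6), on log2 CPM with 0.5 added, and adjusted over 18 tests. The ratio of COX7A1 to COX7A2 was left out, since COX7A1 was under 1 CPM. Standard errors beside log2 changes come from the edgeR fit. Values in every cut are given for the 3 members per complex with the smallest F test p, the isoform pairs, the c subunits, the inhibitor and, in each pair of cuts, the 4 members with the smallest adjusted p in each direction. From each list of other genes at most 2 that passed are named. A call is named as lost where another setting or the removal of a library ended it.

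The members and the lists of related genes and markers were chosen with earlier results of these data known, so they are no independent support for any direction. Alternatives were DESeq2 size factors, upper-quartile scaling, scaling without genes of mitochondrial DNA, DESeq2 1.42.0, limma-voom (limma 3.58.1), other filters, a replicate block, each pair alone, and fits without PB1, without HM6, HM9, TM3 and TM7, without the libraries numbered 8 or without each library in turn. No libraries were duplicates: over genes of at least 20 counts, chi-square per gene within a cut was 29.8 or more. A total of 0 value columns had no sample. Tables were made with Python 3.11.15 and pandas 2.3.3 and figures with matplotlib 3.10.9.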

Additional observations from a re-analysis of the deposited data

Results flagged for a closer look

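A library was singled out where its gap to the nearest library was a larger share of the range of its cut than the critical value of Dixon's test for 10 samples allows. Of 144 groups checked, each a member or a ratio of members in 1 cut, 7 were singled out, and chance singles out about 1 in 20.

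Both values of PB8 were low ones. ATP5F1A, the alpha subunit of the ATP synthase, stood at 524 CPM in PB8, beside 845 CPM in the next PB library, and ATP5MC3, a gene of the c ring, at 27.2 CPM, beside 48.6 CPM.

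The other 5 were high values. COX7A2 stood at 7.50 CPM in HM5, beside 5.49 CPM in the next HM library, and at 7.59 CPM in LDM7, beside 5.30 CPM in the next LDM library. COX8A stood at 16.2 CPM in PB9, beside 10.5 CPM in the next PB library. ATP5MC3 stood at 89.0 CPM in HM10, beside 68.5 CPM. ATP5MD, whose model lies wholly within other gene models, stood at 35.9 CPM in PB7, beside 21.4 CPM.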

How the results depend on the processing

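Of the 36 calls of a member in a pair of cuts, 26 were kept in all 12 alternatives, 23 whichever library was left out and 21 in both, and 0 values reversed. Of 162 values not called, 14 were called in at least 1 alternative. The count in HM over LDM was 17 with limma-voom, against 10, and the count in PB against TM was 2 when the scaling left out mitochondrial DNA, in the pair alone or without the libraries numbered 8, against 4. Leaving out each library in turn, counts ran from 4 to 7 in PB over LDM, 7 to 14 in TM over LDM, 9 to 15 in HM over LDM, 3 to 4 in PB against HM, 1 to 4 in PB against TM, 0 in TM against HM and 11 to 13 in the F test.

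The difference in the COX6A2 to COX6A1 ratio between PB and TM was 0.392 with a pseudocount of 1, 0.317 with FPKM and 0.346 without HM6, HM9, TM3 and TM7, no longer passing, and ran from 0.356 to 0.467 without each library. The ATP5IF1 to ATP5F1B ratio in HM over LDM passed at 0.457 with a pseudocount of 0.1, and ran from 0.294 to 0.420 without each library, passing in 2 of 20 settings. It ran from 0.243 to 0.352 in PB over LDM and from 0.213 to 0.325 in TM over LDM, passing in 1 of 20 settings each. The COX4I2 to COX4I1 ratio in TM over LDM was -0.752 without the libraries numbered 8, then passing, and ran from -0.709 to -0.520 without each library, passing in 2 of 20 settings. The cause of these changes was not tested.

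The labels state no shared source for libraries of the same number, so the main fit did not pair them. Their values were nonetheless related. Of 60 pairs with the same number, 52 correlated above 0.1 (median r = 0.26, lowest -0.17), beside a median r of -0.0385 for different numbers. Of the 40 libraries, 23 correlated best with their own number. Whether a number marks a pig was not tested. With the replicate block, 7 members passed in PB over LDM, 14 in TM over LDM, 13 in HM over LDM, 4 in PB against HM, 5 in PB against TM, 0 in TM against HM and 14 in the F test. Those in PB over LDM were 6 higher and 1 lower, COX8A (adjusted p = 0.0113), which was then also lower in PB than in HM (adjusted p = 0.0289), as SDHD was in PB than in TM (adjusted p = 0.0443). The ATP5IF1 to ATP5F1B ratio over LDM then passed in PB (0.295) and in HM (0.363). Members averaging under 1.2 CPM in every cut, COX4I1, COX4I2 and ATP5MC2 among those tested, rest on few reads, so that differences in them may go undetected at this depth. The models of COX4I1 and ATP5MC2 are also overlapped by other models, over 98.7% and 40.4% of their span, so read assignment limits them too.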
